A study of Mus musculus with 10 samples.

Results

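The genes described here are 38 genes of the actin cytoskeleton and of muscle contraction that are tied to serum response factor (SRF), the transcription factor encoded by Srf. They were picked by gene symbol, and all 38 were found among the 55401 genes of the count table. RNA was sequenced in 10 libraries from mouse cells that had been sorted by antibody staining for Ngfr, the low-affinity neurotrophin receptor. All animals were tamoxifen-inducible KPC mice on C57BL/6, which model ductal cancer of the pancreas, and the labels name neither the alleles nor the Cre driver. The 5 tumour libraries were made from tumours of induced mice, which got tamoxifen by intraperitoneal injection (20 mg/kg on 5 days from 6 weeks of age). The 5 pancreas libraries were made from KPC mice without induction, and both kinds of tissue were taken at 4 months of age. Tumours were digested with a tumour dissociation kit and pancreas with hyaluronidase and collagenase, so digestion and group cannot be told apart. COCUL and CTL, the codes given to tumour and pancreas samples, are not explained. COCUL may be short for co-culture, a step that no protocol in the labels describes, so the group names rest on the labels' tissue terms alone. Nothing in the labels says which libraries came from separate animals, so p-values measure the spread between these libraries, which may be technical.

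SRF binds a short DNA element, the CArG box, and works with partner proteins that carry signals to it. The myocardin-related factors, encoded by Mrtfa and Mrtfb, are held back by free actin monomers and act on SRF when actin is built into filaments. Their targets include actins, actin-binding proteins and the contractile genes of smooth muscle, and Srf itself. The ternary complex factors, such as Elk1, instead carry growth factor signals to immediate early genes such as Fos. In pancreatic tumours the smooth muscle actin gene Acta2 is widely used as a marker of activated fibroblasts and of the muscle cells around vessels.

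Total estimated counts ran from 58242278 to 84194616 in tumour libraries and from 60622336 to 89816499 in pancreas libraries. Schwann cells, which wrap peripheral axons, are the labelled cell type, but most of their marker genes were near the floor. Of 10 Schwann markers 3 could be tested, 1 was higher and none lower, against 32.4% and 33.4% of all tested genes. The summed level of the markers was 9.52 to 12 CPM in tumour and 4.05 to 9.85 CPM in pancreas. Sox10, a master regulator of the lineage, had 0 counts in all tumour libraries and 0 to 9 in pancreas libraries. The sort antigen gene Ngfr had 0 to 14 counts per tumour library and 4 to 22 per pancreas library. Foxd3 and Gfra3 were at 0 in every library. Mbp, the most abundant of the markers, was at 5.43 ± 0.552 CPM in tumour and 3.33 ± 2.27 in pancreas and did not pass. Erbb3, the 1 higher marker, was at 3.70 ± 0.373 CPM in tumour and 2.10 ± 0.809 in pancreas. The first principal component separated the groups (64.7% of the variance) and the second (6.96%) set pancreas replicates 3 and 4 apart from the other pancreas libraries.

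Most of the contractile and actin genes were lower in tumour, with the smooth muscle genes Acta2 and Tagln far below the rest, but the myosin heavy chain genes and the desmin gene were higher. Of the 38 genes 35 passed the filter on low counts and 29 of these were called, where 65.8% of all tested genes were. Of the 35, 22 were lower in tumour, where 33.4% of all tested genes were called lower, and 7 were higher, where 32.4% of all tested genes were called higher (edgeR quasi-likelihood test, adjusted p below 0.05). The CPM of the groups did not overlap for 29 of the 35 genes, against 54.6% of all tested genes. A change of at least 2-fold was called lower for 9 genes (10.3% of all tested genes) and higher for 3 (12.7%). The median log2 fold change, tumour minus pancreas, was -0.44, against 0.002 over all tested genes. Acta1, Cnn1 and Rgs5 passed the filter through the pancreas libraries, with 1, 3 and 0 tumour libraries above its cut-off of 0.133 CPM, so these 3 genes had to differ once they passed. Des passed with 4 pancreas libraries above it. In such bulk samples, fewer cells of a type and less RNA per cell cannot be told apart.

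**Figure D1:**
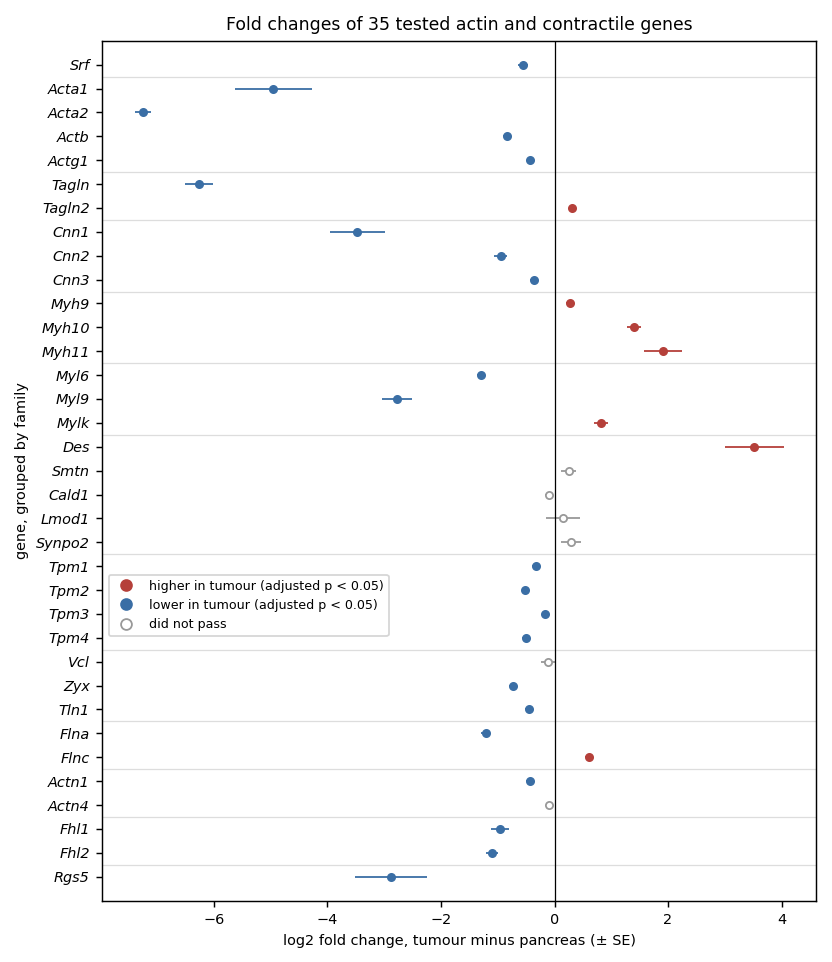
Log2 fold change (tumour minus pancreas, x axis, ± SE) of the 35 tested genes, one gene per row and grouped by family; red points were higher, blue points lower and open points did not pass at an adjusted p of 0.05. Acta2 (-7.25) and Tagln (-6.26) lie farthest to the left, and Des (3.52) farthest to the right.

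As a group the 16 genes that most cell types use for their cytoskeleton had 11 lower (68.8%) and 3 higher (18.8%), against 33.4% lower and 32.4% higher of all tested genes. Of 19 genes enriched in muscle 17 could be tested, with 9 lower (52.9%) and 4 higher (23.5%). Acta1 and Cnn1, which had to differ once they passed the filter, were among the 9. Counts on all 38 genes together made up 1.05% ± 0.017 of a tumour library and 1.32% ± 0.13 of a pancreas library (SD, n = 5 each). The lowest pancreas library, at 1.13%, lay above the highest tumour library, at 1.08%. The muscle-enriched genes made up 0.209 to 0.218% of tumour libraries and 0.189 to 0.238% of pancreas libraries, so their summed shares overlapped. Most of that sum was Flnc (885 CPM in tumour, 578 in pancreas), Cald1 (675 in tumour, 718 in pancreas) and Tpm1 (296 in tumour, 373 in pancreas). It therefore says little about the scarcer genes. Levels are given as CPM, which scales each library's counts to the same total with TMM factors between libraries, as mean ± SD over 5 libraries, and fold changes are log2, tumour minus pancreas, ± SE.

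Srf itself was lower in tumour (ENSMUSG00000015605.6, chromosome 17, 46548329 to 46556175, minus strand, mm10). Its level was 50.6, 53.2, 56.9, 50.9 and 64.5 CPM in tumour replicates 1 to 5, against 84.0, 78.3, 83.6, 93.0 and 67.8 CPM in pancreas replicates 1 to 5. The nearest libraries of the groups were tumour replicate 5 and pancreas replicate 5, and they did not overlap. The log2 fold change was -0.56 ± 0.09 (edgeR quasi-likelihood adjusted p = 6.2e-05). The promoter window of Srf, from RefSeq on GRCm38.p6, held a pair of CArG boxes, 82 and 62 bases before the start site. It is shown because SRF is known to act on its own gene, at chr17:46556153-46556282 on the minus strand, with the boxes in capitals:

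Srf: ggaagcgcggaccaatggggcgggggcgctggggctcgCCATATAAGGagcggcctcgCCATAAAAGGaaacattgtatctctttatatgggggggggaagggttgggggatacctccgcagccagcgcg

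Of 7 cofactor genes tested, 3 were higher (42.9%) and 1 lower (14.3%), against 32.4% and 33.4% of all tested genes. The myocardin-related factor genes did not pass, with Mrtfa at 27.4 ± 2.5 CPM in tumour and 31.0 ± 2.24 in pancreas (adjusted p = 0.0512, edgeR quasi-likelihood) and Mrtfb at 51.5 ± 1.44 CPM in tumour and 39.8 ± 12.1 in pancreas (adjusted p = 0.119). Without pancreas replicate 5 Mrtfa passed as lower (edgeR adjusted p = 0.0207) and Mrtfb as higher (0.0288), and Mrtfa also passed without pancreas replicate 2 (0.0459) or tumour replicate 3 (0.0251). Myocd, which encodes the cofactor of heart and smooth muscle, lay at 0.388 ± 0.222 CPM in tumour and 0.136 ± 0.137 in pancreas and did not pass (edgeR adjusted p = 0.0509). Its log2 fold change was 1.51 ± 0.64, and it passed without pancreas replicate 4 (2.28, edgeR adjusted p = 0.00594), without pancreas replicates 3 and 4 together (2.82, 0.00354) and without tumour replicate 5 (0.0425). It also passed with edgeR under RLE factors (0.0491) and library size alone (0.0396), and under DESeq2 (0.038) and limma-voom (0.0242). Among the ternary complex factors, Elk4 rose (75.4 ± 5.93 CPM in tumour, 39.0 ± 3.32 in pancreas, log2 fold change 0.95 ± 0.07) and so did Elk1 (0.31 ± 0.05), while Elk3 fell (72.1 ± 3.85 CPM in tumour, 112 ± 6.99 in pancreas, -0.63 ± 0.05). Scai, which encodes a suppressor of the myocardin-related factors, was higher, at 45.4 ± 2.65 CPM in tumour and 18.5 ± 9.18 in pancreas (edgeR adjusted p = 0.0175).

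Actin builds the thin filaments. Actb and Actg1 encode the cytoplasmic actins, Acta2 and Actg2 the smooth muscle actins, Acta1 skeletal and Actc1 cardiac actin. The 4 actins that could be tested were all lower, though Acta1 had to differ once it passed the filter. Acta2 (ENSMUSG00000035783.9, chromosome 19, 34241090 to 34255590, minus strand, mm10) was at 1.63, 1.94, 1.87, 1.62 and 1.65 CPM in tumour replicates 1 to 5, against 323, 305, 222, 233 and 248 CPM in pancreas replicates 1 to 5. The tumour libraries lay within a narrow range at a low level (100 to 150 counts per library), far below every pancreas library. The log2 fold change was -7.25 ± 0.14 (152-fold lower, edgeR quasi-likelihood adjusted p = 2.8e-12). Actb, the most abundant actin per length in both groups, was at 1218, 1213, 1285, 1175 and 1248 CPM in tumour replicates 1 to 5, against 2286, 2098, 2253, 2445 and 1902 CPM in pancreas replicates 1 to 5. The tumour libraries lay close together and all below the lowest pancreas library, replicate 5 (log2 fold change -0.84 ± 0.06). Actg1 was lower by less, at 865 ± 42.9 CPM in tumour and 1163 ± 53.8 in pancreas (-0.43 ± 0.05). Acta1 had 0 to 0.148 CPM in tumour and 1.38 to 1.80 CPM in pancreas libraries (-4.95 ± 0.68, against -5.71 without tumour replicate 5 and -5.89 under limma-voom). Actg2 and Actc1 had too few counts to be tested, with 0 counts in every tumour library and, over the 5 pancreas libraries, 83 and 54 counts. Actin genes are nearly identical in their coding parts and have many pseudogene copies, and how shared reads were counted is not given in the sources used here, so the low values of Acta1, Actc1 and Actg2 are uncertain.

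Counted per kilobase of exon, the muscle actins together made up 0.105% ± 0.0080 of all actin counts in tumour and 8.90% ± 1.6 in pancreas (SD, n = 5 each). Nearly all of that was Acta2, at 0.101% in tumour and 8.81% in pancreas. Actg1 took 41.5% ± 0.64 of the family in tumour and 31.8% ± 1.4 in pancreas, and Actb 58.4% ± 0.64 in tumour and 59.3% ± 1.8 in pancreas. So Actb held a similar share of the family in both groups, with overlapping libraries, and Actg1 took a larger one in tumour.

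**Figure D2:**
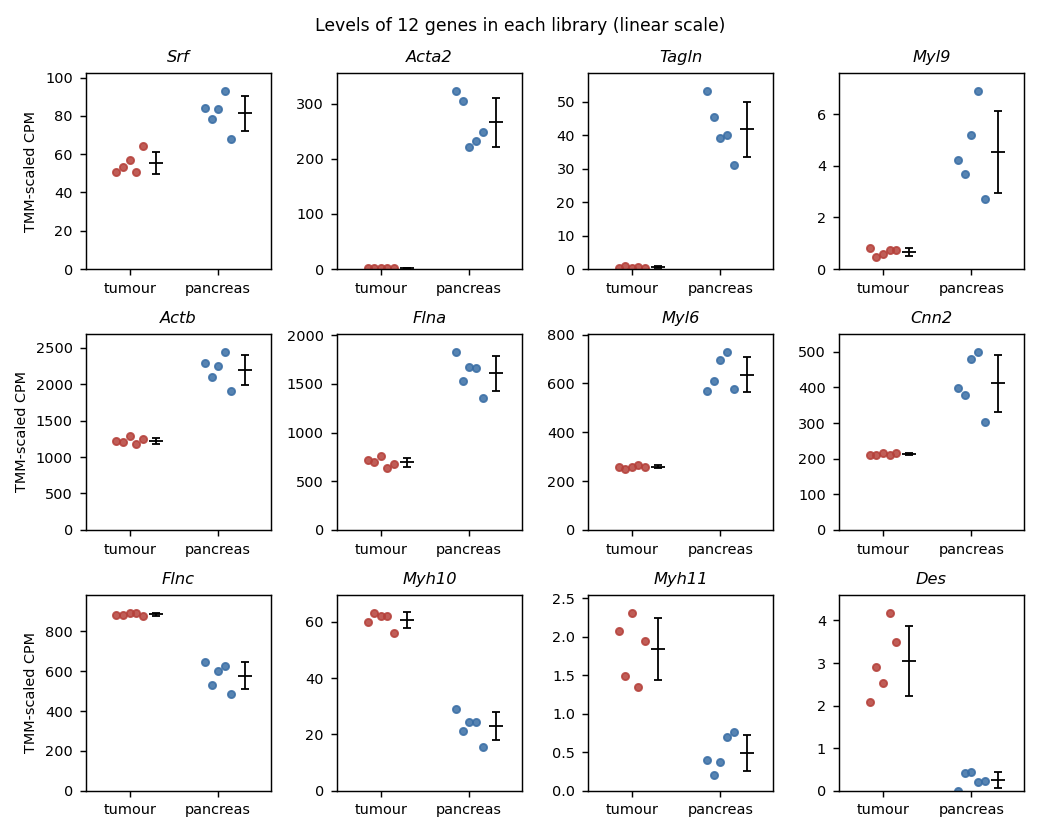
TMM-scaled CPM (y axis, linear, from 0) of 12 genes in each of the 5 tumour libraries (red, left) and 5 pancreas libraries (blue, right); bars give mean ± SD. In each panel no library of one group overlaps the other group, and tumour is higher for Flnc, Myh10, Myh11 and Des and lower for the other 8 genes.

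The transgelins and calponins bind actin filaments. Their smooth muscle forms, Tagln and Cnn1, are standard markers of contractile smooth muscle, while Tagln2, Cnn2 and Cnn3 are found more widely. Tagln (ENSMUSG00000032085.5, chromosome 9, 45929619 to 45936058, minus strand, mm10) was at 0.423, 0.856, 0.325, 0.706 and 0.396 CPM in tumour replicates 1 to 5, against 53.2, 45.3, 39.1, 40.0 and 31.2 CPM in pancreas replicates 1 to 5. The tumour libraries were near the floor and far below every pancreas library (log2 fold change -6.26 ± 0.25, edgeR quasi-likelihood adjusted p = 8.0e-10). The exons of Gm48529 lie across 1241 bases of Tagln on the opposite strand. That gene was also lower (0.756 ± 0.230 CPM in tumour and 5.57 ± 1.56 in pancreas), and without a strand-marking library reads of the pair cannot be told apart. Tagln2 went the other way, with 176, 177, 167, 184 and 162 CPM in tumour replicates 1 to 5, against 139, 144, 132, 142 and 140 CPM in pancreas replicates 1 to 5. That difference was small, at 0.31 ± 0.04 on the log2 scale, but no library overlapped. Per length, Tagln was 0.323% ± 0.12 of transgelin counts in tumour and 23.8% ± 3.5 in pancreas.

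All 3 calponins were lower, though Cnn1 had to differ once it passed the filter. Cnn1 had 0.103, 0.130, 0.143, 0.257 and 0 CPM in tumour replicates 1 to 5, against 1.24, 1.43, 1.52, 1.44 and 1.57 CPM in pancreas replicates 1 to 5, and its log2 fold change was -3.47 ± 0.49. Cnn2, the most abundant calponin per length in both groups, was at 210, 211, 216, 209 and 216 CPM in tumour replicates 1 to 5, against 398, 378, 481, 500 and 302 CPM in pancreas replicates 1 to 5. The tumour values were nearly level and the pancreas values wide, highest in replicates 3 and 4 and lowest in replicate 5 (-0.95 ± 0.11). Cnn3 was lower by less (-0.37 ± 0.06).

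The motor of contraction gave the opposite picture in its heavy chains. Myh9 and Myh10 encode the heavy chains of non-muscle myosin IIA and IIB, and Myh11 that of smooth muscle myosin. All 3 were higher in tumour. Myh10 (ENSMUSG00000020900.15, chromosome 11, 68691559 to 68816632, plus strand, mm10) was at 60.0, 63.2, 62.0, 62.2 and 56.0 CPM in tumour replicates 1 to 5, against 29.1, 21.1, 24.5, 24.4 and 15.7 CPM in pancreas replicates 1 to 5. The lowest tumour library, replicate 5, lay well above the highest pancreas library, replicate 1, and the log2 fold change was 1.40 ± 0.13 (edgeR quasi-likelihood adjusted p = 6.7e-07). Myh11 was low in both groups, with 2.07, 1.49, 2.31, 1.35 and 1.95 CPM in tumour replicates 1 to 5, against 0.395, 0.207, 0.378, 0.693 and 0.758 CPM in pancreas replicates 1 to 5 (1.91 ± 0.33). It rose while the smooth muscle genes Acta2 and Tagln fell. Myh9, by far the most abundant heavy chain per length, was at 1419, 1417, 1472, 1420 and 1506 CPM in tumour replicates 1 to 5, against 1289, 1104, 1266, 1313 and 977 CPM in pancreas replicates 1 to 5 (0.28 ± 0.07, adjusted p = 0.00392). Within the 3 heavy chains, Myh10 took 4.93% ± 0.32 of counts per length in tumour and 2.31% ± 0.28 in pancreas, and Myh9 94.9% ± 0.31 in tumour and 97.6% ± 0.25 in pancreas.

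The light chains fell. Myl6 encodes the essential light chain shared by non-muscle and smooth muscle myosin, and Myl9 a regulatory light chain whose phosphorylation starts contraction. Myl6 was at 258, 251, 256, 267 and 259 CPM in tumour replicates 1 to 5, against 568, 610, 695, 729 and 579 CPM in pancreas replicates 1 to 5 (log2 fold change -1.30 ± 0.07, edgeR quasi-likelihood adjusted p = 2.4e-09). Myl9 was at 0.834, 0.454, 0.571, 0.719 and 0.742 CPM in tumour replicates 1 to 5, against 4.21, 3.68, 5.19, 6.90 and 2.71 CPM in pancreas replicates 1 to 5 (-2.77 ± 0.26). Both genes were below every pancreas library in all 5 tumour libraries. Mylk, the kinase that phosphorylates the regulatory light chain, was higher (7.76 ± 0.690 CPM in tumour, 4.41 ± 0.795 in pancreas, 0.82 ± 0.13). Outside the 38 genes, Myl12a, the gene of another regulatory light chain, fell to 321 ± 20.6 CPM in tumour, against 877 ± 155 in pancreas (-1.45 ± 0.10).

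Tropomyosins lie along the actin filament and all 4 genes were lower, by 0.17 to 0.52 on the log2 scale. Tpm4, the most abundant per length, was at 525, 535, 550, 517 and 511 CPM in tumour replicates 1 to 5, against 770, 712, 825, 829 and 619 CPM in pancreas replicates 1 to 5 (log2 fold change -0.51 ± 0.07). Tpm2, counted like Tpm1 among the genes enriched in muscle, was at 40.6 ± 1.91 CPM in tumour and 58.3 ± 4.06 in pancreas (-0.52 ± 0.06). Tpm1 (-0.33 ± 0.06) and Tpm3 (-0.17 ± 0.04) differed least, and with scaling by library size alone Tpm3 no longer passed (-0.07, edgeR adjusted p = 0.128). The make-up of the family moved little, with Tpm4 at 68.6% ± 0.26 of counts per length in tumour and 71.7% ± 1.6 in pancreas.

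Filamins cross-link actin filaments, and their 2 listed genes moved in opposite directions. Flna, the widely used form, was at 714, 696, 760, 634 and 673 CPM in tumour replicates 1 to 5, against 1828, 1534, 1672, 1658 and 1351 CPM in pancreas replicates 1 to 5 (log2 fold change -1.21 ± 0.08, edgeR quasi-likelihood adjusted p = 1.2e-08). Flnc, the form of striated muscle, was at 881, 884, 894, 892 and 876 CPM in tumour replicates 1 to 5, against 645, 533, 601, 625 and 487 CPM in pancreas replicates 1 to 5 (0.61 ± 0.07, adjusted p = 2.8e-06). So the order of the pair was turned. Flnc made up 56.0% ± 1.6 of counts per length on the pair in tumour and 26.4% ± 0.60 in pancreas, with tumour libraries at 54.0 to 58.5% and pancreas libraries at 25.8 to 27.4%.

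**Figure D3:**
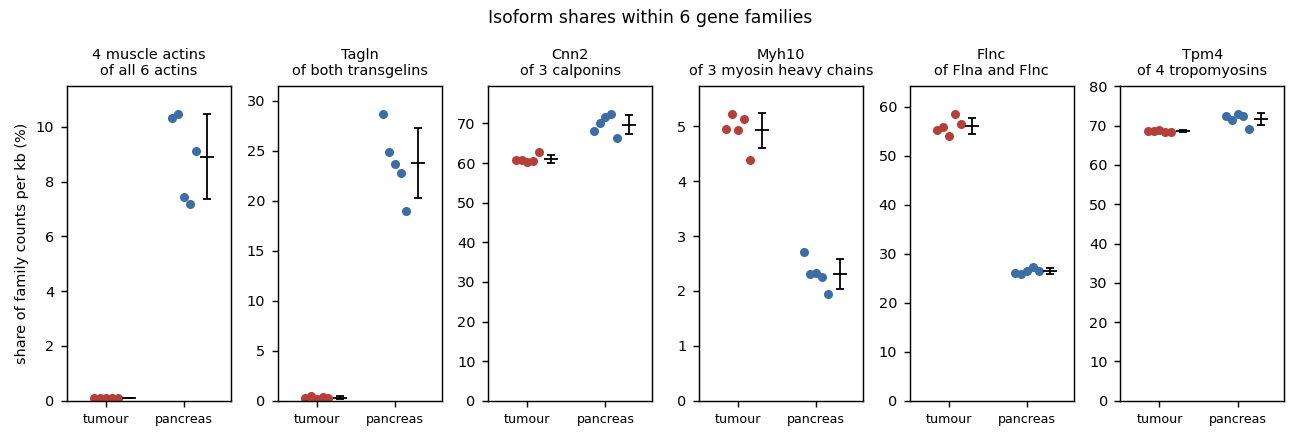
Share of a gene, or of the 4 muscle actins, in the counts per kilobase of its family (y axis, percent, from 0) in each of 5 tumour (red, left) and 5 pancreas libraries (blue, right), with mean ± SD as bars. The Flnc share is 56.0% in tumour and 26.4% in pancreas, and the muscle actin share 0.105% in tumour and 8.90% in pancreas.

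At the sites where actin filaments meet the membrane, zyxin and talin were lower. Zyx, whose protein collects at strained filaments, was at 214 ± 10.2 CPM in tumour and 358 ± 42.5 in pancreas (log2 fold change -0.74 ± 0.07), and Tln1, which links integrins to actin, at 370 ± 8.93 CPM in tumour and 504 ± 61.5 in pancreas (-0.45 ± 0.07). Vcl, whose protein vinculin binds talin, did not pass (341 to 368 CPM in tumour and 270 to 453 in pancreas libraries, edgeR adjusted p = 0.446). Vcl shares 2090 bases of exon with Ap3m1 on the opposite strand (-0.24 ± 0.04), so some of its reads may be uncertain. Its pancreas libraries lay on both sides of the tumour libraries. Without pancreas replicate 5, the lowest, Vcl passed as lower (-0.21 ± 0.07, adjusted p = 0.0184). Of the alpha-actinins, which bundle filaments, Actn1 was lower (-0.44 ± 0.06), while Actn4, the more abundant per length, was at 727 ± 20.0 CPM in tumour and 774 ± 42.1 in pancreas and did not pass (edgeR adjusted p = 0.0945). The FHL genes encode LIM proteins that shuttle between adhesions and the nucleus, and both were lower. Fhl1 was at 109, 105, 110, 116 and 100 CPM in tumour replicates 1 to 5, against 195, 180, 269, 268 and 138 CPM in pancreas replicates 1 to 5 (-0.96 ± 0.16). Fhl2 was at 3.25, 3.59, 3.19, 3.85 and 3.31 CPM in tumour replicates 1 to 5, against 7.08, 6.53, 7.58, 8.49 and 7.13 CPM in pancreas replicates 1 to 5 (-1.10 ± 0.11).

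Among the remaining contractile genes 1 of 5 was called, where 65.8% of all tested genes were. Des encodes desmin, the intermediate filament of muscle and of pericytes (ENSMUSG00000026208.9, chromosome 1, 75360329 to 75368579, plus strand, mm10). It had 2.08, 2.90, 2.53, 4.18 and 3.49 CPM in tumour replicates 1 to 5, against 0, 0.414, 0.447, 0.206 and 0.218 CPM in pancreas replicates 1 to 5 (log2 fold change 3.52 ± 0.52, edgeR quasi-likelihood adjusted p = 5.6e-05). This was 182 to 326 counts per tumour library and 0 to 39 per pancreas library, a large ratio at a low level. The caldesmon gene Cald1, abundant in both groups, was at 642 to 706 CPM in tumour and 605 to 777 in pancreas libraries and did not pass (edgeR adjusted p = 0.260). The smoothelin gene Smtn (33.6 ± 2.45 CPM in tumour, 28.2 ± 6.10 in pancreas), the synaptopodin-2 gene Synpo2 (6.77 ± 1.71 CPM in tumour, 5.53 ± 0.957 in pancreas) and the leiomodin gene Lmod1 (0.957 ± 0.246 CPM in tumour, 0.858 ± 0.327 in pancreas) did not pass either. Smtn passed as higher without pancreas replicate 5 (edgeR adjusted p = 0.0133), Synpo2 without tumour replicate 2 (0.0342), and Cald1 and Actn4 as lower without pancreas replicate 5 (0.0214 and 0.0336).

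A pair of listed genes are used as markers rather than as contractile parts. Rgs5, a regulator of G-protein signalling typical of pericytes, had 0 to 8 counts per tumour library and 16 to 47 per pancreas library (log2 fold change -2.88 ± 0.64). It passed the filter through pancreas alone, so its call is no evidence of a difference. Vil1 encodes villin, the actin bundler of epithelial brush borders, and was too low to be tested, with 0 to 5 counts in tumour and 4 to 17 in pancreas libraries.

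The promoter windows (250 bases before to 50 bases after a RefSeq start site) were searched for the CArG box, in which CC and GG enclose A and T bases only. This pattern is its own reverse complement, so a single search covers both strands. Windows were found for 34 of the 38 genes, and 11 of the 34 held a box (32.4%), against 488 of 27025 genes in the whole table (1.81%). Tagln, Actb, Myh11 and Actg2 were the 4 without a window. The set was assembled as genes tied to SRF, so this share describes the set. Those with a box were Srf, Acta1, Actc1, Actg1, Cnn2, Myl6, Myl9, Vcl, Fhl1, Fhl2 and Vil1. The stretches around the box are shown for those with a box that were lower in tumour, from RefSeq on GRCm38.p6 and read 5′ to 3′ on the gene's strand, with the box in capitals. They lie at chr8:123894766-123894895 (minus, Acta1), chr11:120348486-120348615 (minus, Actg1), chr10:79988480-79988609 (plus, Cnn2), chr10:128493000-128493129 (minus, Myl6, an alternative start site), chr2:156775264-156775393 (plus, Myl9), chrX:56779543-56779672 (plus, Fhl1, an alternative start site), chr1:43196752-43196881 (minus, Fhl2, at the gene's outer start site) and chr1:43163952-43164081 (minus, Fhl2, an alternative start site).
Acta1: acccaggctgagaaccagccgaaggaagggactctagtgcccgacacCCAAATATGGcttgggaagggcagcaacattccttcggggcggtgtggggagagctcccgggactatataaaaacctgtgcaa
Actg1: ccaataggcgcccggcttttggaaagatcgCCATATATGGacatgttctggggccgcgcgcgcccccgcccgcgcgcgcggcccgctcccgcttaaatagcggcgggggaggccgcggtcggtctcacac
Cnn2: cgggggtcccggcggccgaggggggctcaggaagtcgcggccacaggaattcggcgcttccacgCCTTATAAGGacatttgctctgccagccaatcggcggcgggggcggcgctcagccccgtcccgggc
Myl6: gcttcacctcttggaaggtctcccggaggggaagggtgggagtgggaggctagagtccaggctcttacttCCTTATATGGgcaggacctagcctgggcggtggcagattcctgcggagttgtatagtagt
Myl9: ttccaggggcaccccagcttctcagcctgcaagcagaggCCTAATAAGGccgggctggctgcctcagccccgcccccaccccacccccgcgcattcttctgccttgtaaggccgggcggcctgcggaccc
Fhl1: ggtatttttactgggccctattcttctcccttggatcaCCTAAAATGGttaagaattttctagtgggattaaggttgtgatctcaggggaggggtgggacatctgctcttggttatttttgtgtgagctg
Fhl2 outer start: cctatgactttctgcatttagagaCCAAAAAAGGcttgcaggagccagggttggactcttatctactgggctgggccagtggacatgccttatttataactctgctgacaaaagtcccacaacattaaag
Fhl2 alternative start: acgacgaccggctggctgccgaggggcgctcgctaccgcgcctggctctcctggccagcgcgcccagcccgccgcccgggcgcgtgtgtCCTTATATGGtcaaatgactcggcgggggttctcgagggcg

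Of the 9 genes with a box that could be tested, 8 were lower in tumour and none higher, with a median log2 fold change of -0.96. The ninth, Vcl, did not pass. Their boxes began 31 to 227 bases before the start site, with that of Vcl the farthest. Of the 23 tested genes whose windows held no box, 12 were lower, 6 higher and 5 did not pass, with a median of -0.17. Acta1, among the 8, and Cnn1 and Rgs5, among the 12, had to differ once they passed the filter, so their calls are no evidence here. The 6 higher genes were Tagln2, Myh9, Myh10, Mylk, Des and Flnc, so no gene of the set with a box in its window was higher. Acta2 and Cnn1, among the most strongly lowered, had no exact box in these windows. With 1 mismatch allowed, a match found for 23.8% of all genes in the table, the Acta2 window held 2 and the Cnn1 window 0. A window of Flnc, 1 of the 6 higher genes, then held 1. Myh11, also higher, had no window to search. The difference between genes with and without a box was not tested. Over the table the shares with and without a box were close: of 178 tested genes with one outside the set, 33.1% were higher and 38.2% lower (median -0.05), against 34.3% and 35.8% of all 11274 tested genes without a box, the 23 included.

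**Figure D4:**
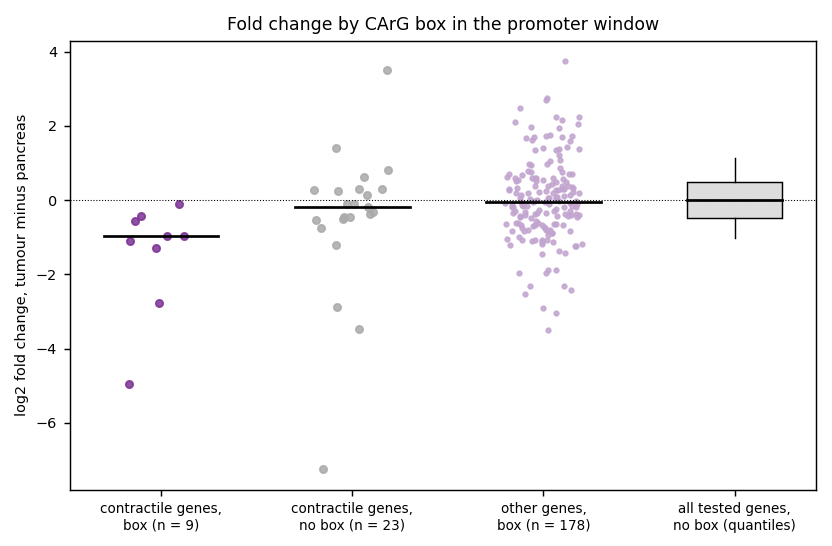
Log2 fold change (tumour minus pancreas, y axis) of the tested contractile genes with a CArG box in the promoter window (n = 9) and without one (n = 23), of other tested genes with a box (n = 178), and of all tested genes without a box (box from the 25th to the 75th percentile, whiskers from the 10th to the 90th). Points are genes and lines are medians; the medians are -0.96, -0.17 and -0.05 for the 3 sets of points.

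Other genes of the same machinery were looked at in lists drawn up by function. Of 22 focal adhesion and cross-linker genes outside the set, 10 were higher and 9 lower (median log2 fold change -0.05). Among them Tln2, the second talin, was at 20.3 ± 1.54 CPM in tumour and 6.01 ± 1.5 in pancreas (1.76 ± 0.15), opposite to Tln1, and the integrin-linked kinase gene Ilk at 24.5 ± 1.13 CPM in tumour and 79.3 ± 13.8 in pancreas (-1.70 ± 0.10). The list thus moved both ways, with 45.5% called higher and 40.9% lower, against 32.4% and 33.4% of all tested genes.

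Immediate early genes known as targets of SRF with the ternary complex factors were mostly lower. The activity of SRF or of these factors was not tested. Of 10 such genes 8 were lower and none higher (median log2 fold change -1.22, against 33.4% called lower over all tested genes). Egr3 was at 4.96 ± 0.632 CPM in tumour and 43.6 ± 19.6 in pancreas (-3.13 ± 0.32) and Fos at 19.0 ± 4.22 CPM in tumour and 116 ± 37.1 in pancreas (-2.61 ± 0.25). Smooth muscle genes outside the set gave no common direction, with 5 higher and 3 lower of 11 tested (median 0.60). That is 45.5% higher and 27.3% lower, against 32.4% and 33.4% of all tested genes. Itga8, an integrin gene, was at 7.10 ± 1.24 CPM in tumour and 22.7 ± 15.7 in pancreas (-1.68 ± 0.46), and its libraries overlapped. Its value was -0.70 without pancreas replicates 3 and 4, and it did not pass under limma-voom (adjusted p = 0.0672). Pgm5, whose protein sits at smooth muscle adhesions, was at 2.01 ± 0.439 CPM in tumour and 0.628 ± 0.189 in pancreas (1.68 ± 0.26). Sarcomere genes of striated muscle were close to the floor, at a summed 7.75 to 9.11 CPM in tumour and 11.8 to 16.7 CPM in pancreas, with 3 lower and none higher of 10 tested. The 3 lower genes (30%) were near the share of all tested genes. Tnnt1, 1 of the 3, passed the filter mostly through pancreas, with 0 to 23 counts per tumour library and 29 to 77 per pancreas library. Of the brush border genes, which accompany villin, 1 was higher (25%) and 2 lower (50%) of 4 tested. Ezr, which links actin to the membrane, was at 351 ± 9.15 CPM in tumour and 635 ± 62.5 in pancreas (-0.86 ± 0.06), and the capping protein gene Eps8 at 57.6 ± 4.27 CPM in tumour and 27.9 ± 3.99 in pancreas (1.04 ± 0.09). Among relatives of the listed families, Fhl3 followed the other FHL genes (-0.77 ± 0.13).

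Markers of other cells were looked at by cell type, and the lists did not share a direction. The counts below stand beside 32.4% called higher and 33.4% called lower over all tested genes. Fibroblast markers (10 listed, 8 tested, 6 lower and 1 higher) summed to 84.1 to 104 CPM in tumour and 500 to 598 CPM in pancreas, and Thy1 carried most of the difference, at 3.99 ± 0.723 CPM in tumour and 392 ± 25.2 CPM in pancreas, and Col3a1 was at 42.8 ± 7.24 CPM in tumour and 162 ± 30.6 in pancreas. The 1 higher gene was Pdgfra, at 45.1 ± 3.35 CPM in tumour and 12.4 ± 1.8 in pancreas (log2 fold change 1.87 ± 0.09). Dcn had 0 counts in every tumour library and 20 to 87 per pancreas library. It passed the filter through pancreas alone, so it had to be lower once it passed. Col1a2, also called lower, passed mostly through pancreas, with 0 to 12 counts per tumour library and 34 to 110 per pancreas library. Lum and Dpt also had 0 counts in tumour, but only 4 and 8 over the 5 pancreas libraries, so no difference was detectable for them. Pericyte markers outside the set (10 listed, 6 tested, 4 higher and 1 lower) summed to 607 to 633 CPM in tumour and 494 to 543 CPM in pancreas, with Kcnj8 at 0 in every library. Vtn had 0 counts in tumour and 6 over the 5 pancreas libraries. The 1 lower gene of the list was Pdgfrb, at 164 ± 9.83 CPM in tumour and 253 ± 19.7 in pancreas (-0.63 ± 0.06). The 4 higher genes were Cspg4 (0.54 ± 0.07), Notch3 (0.84 ± 0.18), Anpep (1.45 ± 0.09) and Ndufa4l2 (4.12 ± 0.48, and 4.94 under limma-voom). Ndufa4l2 had 189 to 384 counts per tumour library and 0 to 21 per pancreas library, a large ratio at a low level. Endothelial markers (8 listed, 5 tested, 2 lower) summed to 198 to 209 CPM in tumour and 340 to 391 CPM in pancreas, mostly through Cdh5. Emcn and Cldn5 had 0 counts in tumour and 12 and 3 over the 5 pancreas libraries. Epithelial markers (8 listed, 4 tested, 4 lower) summed to 24.2 to 28.5 CPM in tumour and 31.4 to 43.7 CPM in pancreas, mostly through Krt19 (93.8%). Krt7 and Krt18 reached at most 0.104 and 0.126 CPM in tumour, below the filter's cut-off of 0.133 CPM. They passed the filter through pancreas alone, so they had to be lower once they passed. Krt8 had 0 counts in tumour and 17 over the 5 pancreas libraries. Mesothelial markers (6 listed, 1 tested and lower) summed to at most 0.462 CPM in tumour and 1.31 CPM in pancreas. The tested gene, Upk1b, passed the filter mostly through pancreas, with 0 to 19 counts per tumour library and 16 to 81 per pancreas library. Acinar markers (6 listed, 1 tested and higher) summed to at most 2.73 CPM in tumour and 1.36 CPM in pancreas. Macrophage markers (6 listed, 2 tested, 1 higher) summed to 15 to 18.8 CPM in tumour and 4.33 to 14.8 CPM in pancreas, with Adgre1 and C1qa at 0 in every library. The part of these cells in the differences was not tested.

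The genes varied more between pancreas than between tumour libraries. For the 25 genes of at least 20 CPM in pancreas the median coefficient of variation was 3.64% in tumour and 11.3% in pancreas, and it was wider in pancreas for 21 of them. Replicate 5 was the lowest pancreas library for 21 of the 35 tested genes (60.0%), against 24.8% of all tested genes, and replicates 3 and 4 were the highest pair for 14 (40.0%), against 20.9% of all tested genes. Those 14 included Cnn2, Myl6, Myl9, Tpm4, Fhl1 and Vcl. Acta2 did not share the pattern, since it was highest in replicates 1 and 2 (323 and 305 CPM) and lowest in replicates 3 and 4 (222 and 233 CPM). Tagln was highest in replicates 1 and 2 as well, and lowest in replicate 5. With pancreas replicates 3 and 4 left out together, 22 genes were lower and 7 higher, as with all libraries.

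**Figure D5:**
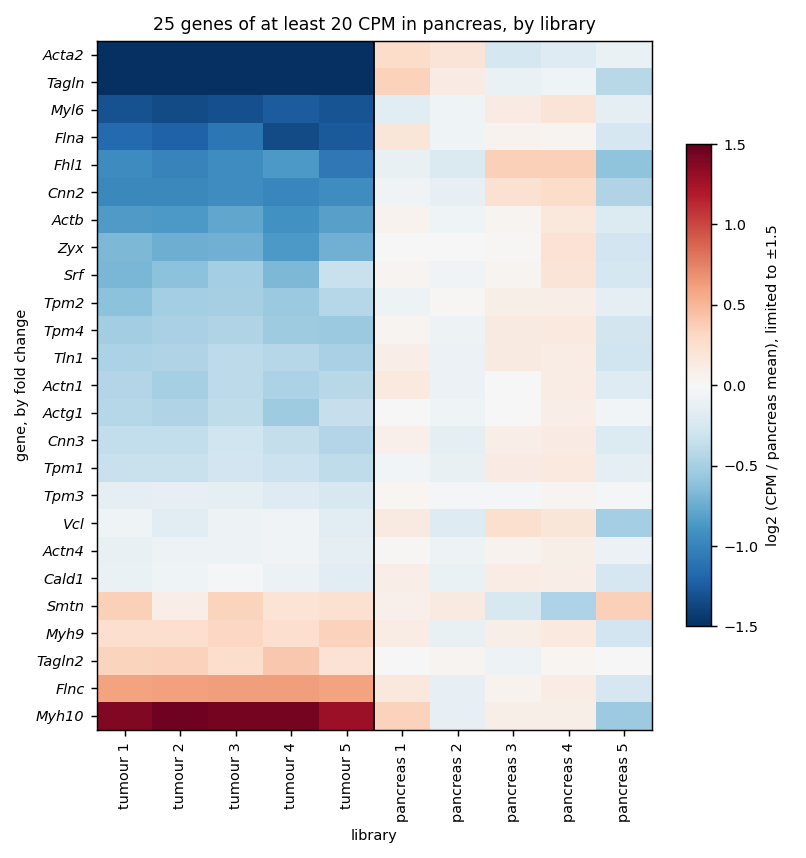
Level in each library (columns; 5 tumour, then 5 pancreas) relative to the pancreas mean, as log2 (color, limited to ±1.5), for the 25 genes of at least 20 CPM in pancreas (rows, ordered by fold change). Tumour columns look alike, while pancreas replicate 5 is bluer than replicate 4 for most genes; Smtn is an exception.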

How the data were processed

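The authors deposited estimated counts, 1 column per library, for 55401 genes. HTSeq, HISAT2, HISAT and the mm10 build are named, per the submitters' processing notes. Their versions and the counting and strand settings were not given in the sources. Columns were matched to samples by the code in each description, and 0 columns belonged to no sample. All values were whole. Genes at 4 counts were 1.69 to 2.07 times as frequent as their neighbours, so a fragment may add several counts and no counting interval is given. Chi-square per degree of freedom on counts divided by 4, over genes averaging 100 counts or more, was 3.01 to 6.17 between tumour and 3.59 to 44.0 between pancreas libraries, so no pair agreed within sampling noise.

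Genes were filtered with filterByExpr (minimum count 10, minimum total 15), scaled by TMM (factors 1.03 to 1.04 in tumour, 0.960 to 0.972 in pancreas) and compared with the edgeR 4.0.16 quasi-likelihood F test (robust; R 4.3.3), with Benjamini-Hochberg adjustment over 17548 genes and a threshold of 0.05. The SE is the log2 fold change divided by the square root of F. DESeq2 1.42.0 and limma-voom (limma 3.58.1) were among the alternatives. Exon lengths and mm10 coordinates came from GENCODE M21, where 55141 identifiers were found, and promoters from RefSeq. Genes named outside the set are all SRF cofactors and, per list, the 2 largest called changes at 1 CPM or more, and 1 of these lists and some items are not reported here. Sox10, Ngfr, Mbp, Pdgfra, Pdgfrb, Cspg4, Notch3, Krt7, Krt18, Col1a2, Upk1b, Tnnt1 and markers at 0 were named after their values were seen. The 38 genes and the lists were chosen with earlier results of these data known.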

Additional observations from a re-analysis of the deposited data

Results flagged for a closer look

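Of 148 groups of 5 libraries checked (each of the 38 genes, the named genes outside them and 6 family shares, in tumour and in pancreas), 3 had a library that stood far from the other 4. Chance alone flags about 1 in 20 such groups. Vil1 was at 0.0571 CPM in tumour replicate 1 and at 0 in the other tumour libraries, which rests on 5 counts. Mrtfb was at 54.0 CPM in tumour replicate 5 and at 50.7 to 51.1 CPM in the others. The Cnn2 share of calponin counts per length was 62.7% in tumour replicate 5 and 60.2 to 60.9% in the others.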

How the results depend on the processing

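Over 19 alternatives the count of lower genes ran from 21 to 25 and that of higher genes from 7 to 8, and 652 of 662 fold changes of single genes kept their direction and their side of the threshold. Leaving out 1 library at a time gave 22 to 25 lower and 7 to 8 higher. The alternatives were RLE size factors, library size alone, no filter, 1 CPM in 5 libraries, DESeq2, limma-voom, the replicate number as a block, counts divided by 4, and libraries left out. With library size alone, where the median of all genes came to 0.10 on the log2 scale, Actn4 (0.01) and Cald1 (0.01) turned sign, Tpm3 no longer passed and Smtn passed (0.35, edgeR adjusted p = 0.0237). Without pancreas replicates 3 and 4 together Vcl turned sign (0.05), and none of these 3 had passed. Of 568 values of the named genes outside the set 554 kept direction and side, 13 (Myocd, Mrtfa, Mrtfb) passed where they had not, and Itga8 was lost under limma-voom (-1.39). Without division by length, shares were 0.0857% for the muscle actins in tumour, 55.9% (tumour) and 65.1% (pancreas) for Cnn2, 4.03% (tumour) and 1.88% (pancreas) for Myh10, and 45.1% (tumour) and 49.1% (pancreas) for Tpm4, each through the lengths of the family members. With 1 mismatch allowed, 18 of the 34 genes and 6419 of 27025 genes held a CArG box. The replicate numbers did not pair the libraries (correlations of same-numbered libraries -0.0193 to 0.0394). With the replicate block 22 genes were lower and 7 higher, and 5598 and 5587 of all genes, and Mrtfa (adjusted p = 0.0249) and Myocd (0.0174) passed.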
